A study of Mus musculus with 24 samples.

Results

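The comparison described here sets the Input RNA of irradiated Ythdf2 cKO myeloid cells against that of irradiated WT myeloid cells. It rests on 6 of the 24 libraries of the study, the 3 Input libraries labelled cKO IR and the 3 labelled WT IR, and on the 15174 of 54446 counted genes that had at least 10 counts in at least 3 of these 6 libraries. Input libraries hold the polyadenylated RNA before an antibody against N6-methyladenosine (m6A) is added, so their counts measure transcript levels. The cells were CD11b+ cells from MC38 tumours, a mouse colon carcinoma line transplanted into C57BL/6J mice. WT mice carried the floxed allele without a recombinase (Ythdf2 fl/fl), and cKO mice carried the same floxed allele and Cre recombinase expressed from the Lyz2 locus (Lyz2-Cre;Ythdf2 fl/fl). Both groups shared the floxed allele, the tumour and a single dose of 20 Gy to the tumour, with cells taken 3 days later. Lyz2-Cre is active in monocytes, macrophages and neutrophils and less completely in other CD11b+ cells, so the sorted population could hold cells that had kept Ythdf2. Each replicate pooled the cells of several mice, and the methods call the replicates technical in one place and biological in another, so p-values measure the spread between libraries. In these bulk samples, fewer cells of a type and less RNA per cell cannot be told apart.

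YTHDF2 is a cytoplasmic reader that binds m6A in messenger RNA and recruits the CCR4-NOT deadenylase, which shortens the poly(A) tail and starts decay. Myeloid cells in an irradiated tumour are exposed to DNA and danger signals from dying cells, and type I interferon made in response acts through JAK kinases, STAT proteins and IRF9 to switch on a large set of antiviral genes. NF-kB, a family of transcription factors held in the cytoplasm by inhibitor proteins, drives chemokine and cytokine genes in the same cells. The study asked how loss of YTHDF2 changes the myeloid response to radiotherapy.

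The label genes were checked first. Ythdf2 (chromosome 4, positions 132184912 to 132212303, minus strand, GRCm38) stood at 104, 103 and 106 CPM in the WT-labelled libraries and at 231, 219 and 217 CPM in the cKO-labelled libraries, where CPM is the count divided by the TMM-scaled library size in M (mega). The gene-level count was thus higher in every library labelled as the knockout, with a log2 fold change of 1.09 (SE 0.04, edgeR adjusted p = 4.3e-09), and such a count does not show which exons the reads came from. Lyz2, the lysozyme gene that carries the Cre insertion (chromosome 10, positions 117277331 to 117282321, minus strand), followed the labels, with 21329, 19975 and 20628 CPM against 414, 400 and 411 CPM. Because the targeted gene does not fall in the libraries labelled cKO, every direction below is a difference between the labelled groups. The libraries held 66.0M to 69.8M gene counts in WT IR and 65.2M to 71.7M in cKO IR. Reads from the mitochondrial genome made up 6.69% ± 0.56 of gene counts in WT IR and 3.54% ± 0.19 in cKO IR (SD over 3 libraries).

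The labelled groups differed over a large part of the transcriptome by small amounts. With edgeR's quasi-likelihood test and a Benjamini-Hochberg adjusted p under 0.05, 6829 genes (45.0% of those tested) were called, 3504 higher (23.1%) and 3325 lower (21.9%) in the cKO-labelled libraries. These shares are the background for the counts of list members called in this comparison below. The median size of a called difference was 0.40 on the log2 scale, and 4496 of the called genes (65.8%) differed by less than 0.5. At least 2-fold differences were found for 235 genes higher (1.55%) and 434 lower (2.86%), and for 135 and 154 when at least 50 counts in 3 libraries were required. In 4215 genes (27.8%) all 3 cKO-labelled libraries lay above all 3 WT-labelled ones, and in 3985 (26.3%) all lay below. Over all genes tested, the median log2 fold change was 0.01. The same contrast in unirradiated tumours (cKO Ctrl against WT Ctrl), fitted together with the irradiated libraries, called 2520 of 16090 genes (15.7%; 8.05% higher and 7.61% lower), and the interaction, which tests whether the genotype difference itself differs with irradiation, called 4861 (30.2%).

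Among the 12 protein-coding genes with the largest rise (mean level of at least 10 CPM in the higher group), 9 were interferon-induced and the others were Saa3, Ccl2 and Serpinb2. The 12 with the largest fall held Lyz2, the haemoglobin gene Hbb-bs, the neutrophil granule genes Ltf and Ngp, the mitochondrial genes mt-Nd5 and mt-Nd6, and 5 genes with long transcripts (Ahnak2, Tns1, Nav2, Nhsl2 and Pgap1) beside Wdfy1. Wdfy1, an endosomal protein reported to vary in level between mouse strains, fell from 26.5, 29.2 and 27.4 CPM to 5.19, 4.16 and 4.85 CPM. Its difference was -2.55 (SE 0.09) on the log2 scale in irradiated and -2.20 in unirradiated tumours.

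**Figure D1:**
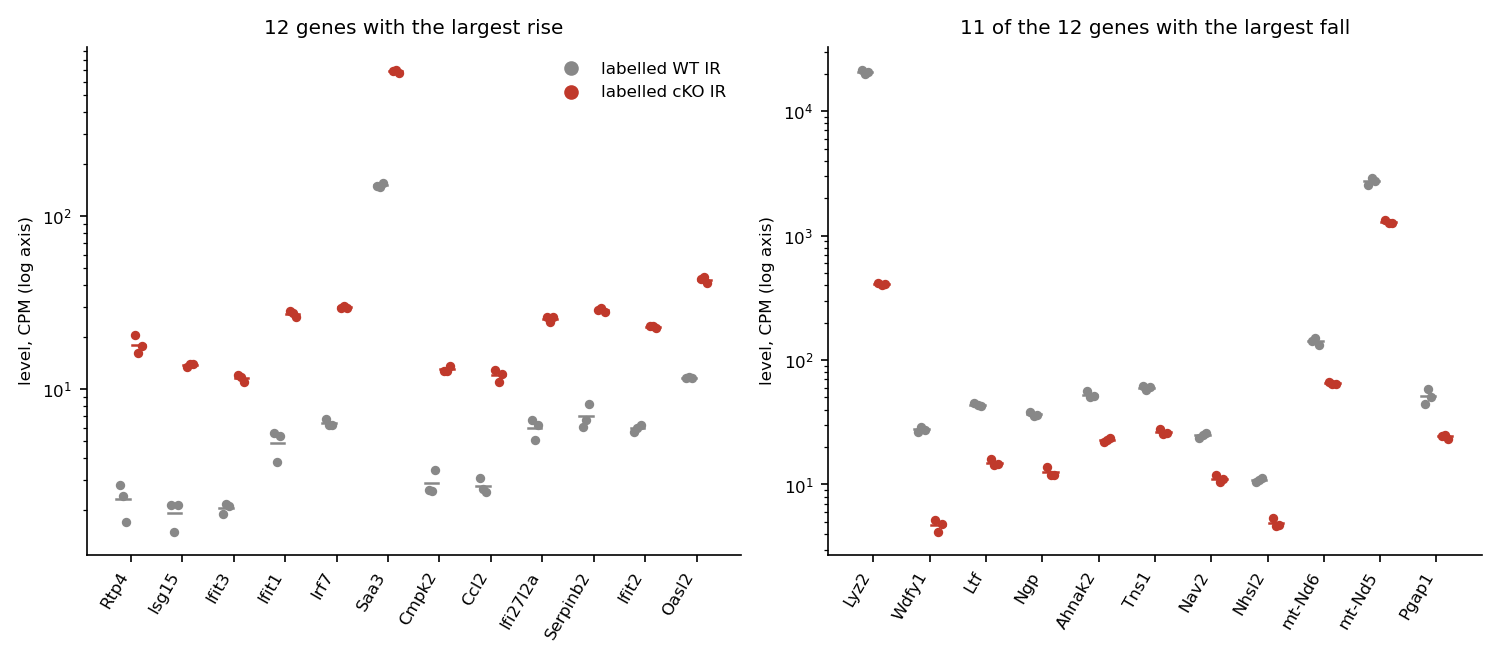
Level of the genes with the largest rise (left, 12 genes) and the largest fall (right, 11 genes, without Hbb-bs, whose cKO-labelled libraries had no counts) in each library, in CPM on a log axis. Points are the 3 libraries of a group, grey for WT IR and red for cKO IR, and bars are group means. The groups do not overlap in any gene shown, which the rule for choosing them required.

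Interferon-stimulated effector genes had the highest median among the gene lists described here. Of 49 tested members, 46 were higher and 1 was lower, with a median log2 fold change of 1.07 against 0.01 over all genes, and 25 were higher by at least 2-fold. Isg15, a ubiquitin-like protein attached to target proteins, stood at 2.15, 1.5 and 2.13 CPM in WT IR and at 13.4, 13.9 and 14.1 CPM in cKO IR, a log2 fold change of 2.84 (SE 0.12, edgeR adjusted p = 6.2e-09). Rtp4, an interferon-induced inhibitor of viral RNA synthesis, had the largest rise among genes over 10 CPM, from 2.8, 2.41 and 1.71 CPM to 20.6, 16.1 and 17.7 CPM. For both genes, the lowest cKO-labelled library was far above the highest WT-labelled one. Some separation in this direction was found in 27.8% of all genes tested. The IFIT proteins, which bind viral RNA and block its translation, rose together. Ifit3 went from 1.89, 2.16 and 2.11 CPM to 12.1, 11.8 and 11 CPM (log2 fold change 2.50, SE 0.10), and Ifit1 from 5.62, 3.78 and 5.35 CPM to 28.2, 27.4 and 26.1 CPM (2.47, SE 0.12). Ifit2 rose by 1.95 (SE 0.07). Ifit1 and Ifit3 have close copies in the same cluster, and reads shared between copies depend on how the authors' counting treated them.

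Other effectors with large rises had different roles. Oasl2, an oligoadenylate synthetase-like protein, rose from 11.6, 11.7 and 11.6 CPM to 43.4, 44.3 and 41 CPM. Cmpk2, a mitochondrial nucleotide kinase, rose by 2.18 (SE 0.11) and Ifi27l2a by 2.1 (SE 0.09) on the log2 scale. Ifi44 had the largest log2 fold change among effectors, 3.05 (SE 0.35), from levels of 0.139, 0.18 and 0.16 CPM, so its ratio rests on few counts. Bst2 (tetherin), which holds budding virus at the cell surface, rose from 32.8, 32.6 and 32.2 CPM to 57.9, 59.3 and 60.1 CPM. The 1 member called lower was Samhd1, a nucleotide hydrolase that limits reverse transcription, at 489, 499 and 509 CPM against 461, 449 and 452 CPM. Its log2 fold change of -0.14 became 0.06 without the length trend described below, and its call was lost when WT IR replicate 3, cKO IR replicate 2 or cKO IR replicate 3 was left out (edgeR adjusted p 0.0635, 0.0695 and 0.0564).

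The 250 bases before the start of 4 of these genes are shown because they hold the interferon-stimulated response element, the site bound by the STAT and IRF complex, searched here as GAAA, any 2 bases and GAAA or, on the other strand, TTTC, any 2 bases and TTTC. Sequences are those of RefSeq on GRCm38.p6, 5′ to 3′ on the gene's strand, with each match in capitals and adjoining matches run together. The windows are chr4:156200819-156201068 (minus strand) for Isg15, chr19:34583279-34583528 (plus) for Ifit3, chr19:34640639-34640888 (plus) for Ifit1 and chr8:71537473-71537722 (minus) for Bst2.
Isg15: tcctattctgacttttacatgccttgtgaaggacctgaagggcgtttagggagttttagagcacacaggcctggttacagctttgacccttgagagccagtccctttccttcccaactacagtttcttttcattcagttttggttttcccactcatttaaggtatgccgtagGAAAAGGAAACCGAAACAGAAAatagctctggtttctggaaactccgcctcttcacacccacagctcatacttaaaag
Ifit3: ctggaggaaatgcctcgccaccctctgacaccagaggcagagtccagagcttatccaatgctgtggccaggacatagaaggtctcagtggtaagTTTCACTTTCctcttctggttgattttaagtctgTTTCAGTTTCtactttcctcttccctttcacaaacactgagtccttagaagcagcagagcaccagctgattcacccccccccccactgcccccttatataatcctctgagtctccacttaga
Ifit1: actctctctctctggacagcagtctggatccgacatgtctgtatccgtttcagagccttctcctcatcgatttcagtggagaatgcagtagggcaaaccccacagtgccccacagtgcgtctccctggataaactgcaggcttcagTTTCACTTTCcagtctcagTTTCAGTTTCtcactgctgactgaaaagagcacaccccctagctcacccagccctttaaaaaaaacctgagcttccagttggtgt
Bst2: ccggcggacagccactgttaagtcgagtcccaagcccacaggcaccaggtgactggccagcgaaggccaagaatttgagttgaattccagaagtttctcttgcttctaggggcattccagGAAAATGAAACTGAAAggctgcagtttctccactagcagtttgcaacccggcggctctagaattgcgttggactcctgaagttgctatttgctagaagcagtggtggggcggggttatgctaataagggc
Isg15 held 3 overlapping matches, the first beginning 78 bases before the start. In Ifit3 and Ifit1 there were 2 separate matches each, and in Bst2 2 overlapping ones. Of the 49 tested effectors, 37 had a promoter in the table used, and 14 of these (37.8%) held the motif, as did 8 of 8 matched interferon-inducible GTPases. The motif was found in 2.98% of all 32851 promoter windows, in 3.45% of the 10396 tested genes matched, in 29 of 131 matched genes that were at least 2-fold higher (22.1%) and in 2 of 131 that were at least 2-fold lower (1.53%). A match is a description of the letters, and no match says only that they are not in this window.

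The interferon-inducible GTPases, which attack the vacuoles of intracellular pathogens, had 9 members higher and none lower of 14 tested, with a median log2 fold change of 0.82. Tgtp2 rose from 0.263, 0.21 and 0.335 CPM to 1.36, 1.19 and 1.11 CPM, and Gvin1 from 1.13, 1 and 1.01 CPM to 2.98, 3.11 and 3.14 CPM. In both genes the groups were apart, as in 27.8% of all genes tested in this direction, at levels near 1 CPM. Among sensors and signalling genes, 12 of 22 were higher and 3 lower (median 0.16). Irf7, the transcription factor that amplifies type I interferon production, rose from 6.76, 6.25 and 6.18 CPM to 29.6, 30.4 and 29.5 CPM (log2 fold change 2.22, SE 0.07). Dhx58, an RNA sensor of the RIG-I family, rose from 8.78, 8.39 and 7.35 CPM to 21.2, 20.6 and 19.9 CPM. Irf2, a repressor at the same promoter elements, fell by 0.26 (SE 0.05) and Jak1, the receptor-bound kinase, fell by 0.21 (SE 0.04). Neither Irf2 nor Jak1 was called after the exon length trend described below was removed (edgeR adjusted p = 0.0526 and 0.0926), and both were called with the length and GC trends removed (0.018 and 0.039). Of the 9 interferon ligand genes listed, none passed the count filter, so transcripts of the interferons themselves were not detectable at the level tested.

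With the length trend removed, 45 of the 49 effectors were higher and none lower, with a median of 0.94, and 9 GTPases were higher with a median of 0.81. In unirradiated tumours 44 effectors were higher and none lower, with a median of 0.79. The interaction was positive, with a larger difference in irradiated tumours, for 26 effectors and negative for 4. For Isg15 the log2 fold changes were 2.84 with and 1.31 without irradiation (interaction 1.52, SE 0.16, edgeR adjusted p = 5.4e-07).

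Chemokine and cytokine genes were raised by smaller numbers of members. Of 13 CC chemokine ligands, 8 were higher and 1 lower, with a median of 0.80, and with the length trend removed 8 were higher and 2 lower (median 0.50). Ccl2, which draws CCR2-bearing monocytes into tissue, stood at 3.06, 2.64 and 2.54 CPM in WT IR and 12.9, 11 and 12.2 CPM in cKO IR, a log2 fold change of 2.13 (SE 0.11, edgeR adjusted p = 2e-08) against 1.1 in unirradiated tumours. Ccl7, a neighbouring ligand of the same receptor, rose from 0.108, 0.21 and 0.102 CPM to 0.951, 1.49 and 1.58 CPM. Every cKO-labelled library exceeded every WT-labelled one for both ligands, as in 27.8% of all genes tested. Ccl12, named after its values were seen, had no counts in the 3 WT-labelled libraries and 27, 26 and 24 counts in the cKO-labelled ones, which is at least 25.2-fold higher against a floor of 3 counts over the group. Ccl5, a T cell attractant, was the member called lower, at 660, 743 and 782 CPM against 639, 650 and 660 CPM. Its groups touched at 660 CPM, and the call was lost when WT IR replicate 3 or any 1 cKO IR replicate was left out (edgeR adjusted p 0.0572 to 0.141). Its log2 fold change of -0.16 became -0.51 with the length trend removed and with the length and GC trends removed (edgeR adjusted p = 2.3e-05 and 9e-06).

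Of 10 CXC and other chemokine ligands, 7 were higher and 3 lower (median 0.36), and 5 and 3 with the length trend removed (median 0.13). Cxcl10, an interferon-induced attractant of CXCR3-bearing T cells, rose from 0.944, 1.15 and 0.86 CPM to 3.68, 3.53 and 3.85 CPM. Cxcl1, a neutrophil attractant, rose from 31.2, 34.6 and 35.1 CPM to 69.4, 67.8 and 68.7 CPM. Cxcl16 rose by 0.34 (SE 0.04), whereas Cxcl14 fell by 0.81 (SE 0.14). The chemokine receptor Ccr7, which guides dendritic cells to lymph nodes, was at 582, 558 and 570 CPM against 640, 630 and 663 CPM, a log2 fold change of 0.18 that became -0.06 without the length trend.

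Inflammatory cytokines had 13 members higher and 1 lower of 17, with a median of 0.50, and 9 higher and 2 lower with the length trend removed (median 0.25). Il12a, a subunit of the T helper cytokine IL-12, rose from 1.01, 1.27 and 1.24 CPM to 3.83, 3.58 and 2.93 CPM. Il6 rose from 4.13, 3.49 and 4.45 CPM to 9.38, 9.39 and 9.4 CPM. Lif was the member called lower, by 0.34 (SE 0.12), and that call was lost when WT IR replicate 2, WT IR replicate 3 or cKO IR replicate 1 was left out (edgeR adjusted p 0.0577, 0.078 and 0.13). Among inflammatory genes outside these lists, Saa3, an acute-phase protein made by macrophages, rose from 150, 148 and 157 CPM to 688, 700 and 676 CPM, a log2 fold change of 2.18 (SE 0.04) against 1.21 in unirradiated tumours. Serpinb2, an inhibitor of plasminogen activation, rose from 6.08, 6.68 and 8.21 CPM to 28.8, 29.4 and 27.8 CPM. Clec4e (Mincle), a receptor for mycobacterial glycolipid and dead cells, rose from 371, 445 and 424 CPM to 922, 863 and 863 CPM, and haptoglobin (Hp) from 225, 189 and 196 CPM to 404, 415 and 418 CPM.

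The study named 5 genes that act as brakes on NF-kB signalling, a choice made on these samples, so their direction is not independent evidence. All 5 were higher, with a median log2 fold change of 0.40. Metrnl, a secreted meteorin-like protein, went from 70.8, 65.5 and 65.1 CPM to 86, 87.1 and 91.7 CPM. Smpdl3b, a membrane sphingomyelinase-like enzyme that dampens Toll-like receptor signalling, went from 20.1, 20.4 and 20.7 CPM to 32.3, 33.4 and 33.3 CPM. Tnfaip8l2, a negative regulator of innate immunity, went from 28.4, 23.8 and 25.1 CPM to 40.6, 42.2 and 42.6 CPM. In these 3 genes and in Socs3 all 3 cKO-labelled libraries lay above all 3 WT-labelled ones, as in 27.8% of all genes tested. Socs3, an inhibitor of JAK signalling, rose by 0.40 (SE 0.06). After the length trend was removed, Metrnl was no longer called (edgeR adjusted p = 0.0754, and 0.0029 with length and GC removed), and 3 of the 5 stayed called with a list median of 0.27. In unirradiated tumours 4 of the 5 were higher (median 0.38), and the interaction called 1, beside 30.2% of all genes.

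Other parts of the NF-kB pathway did not share this direction. Of 24 NF-kB inhibitors 7 were higher (29.2%) and 3 lower (12.5%), beside 23.1% and 21.9% of all genes (median -0.01). Of 13 subunits and kinases none were higher and 6 lower (median -0.15). With the length trend removed 3 subunits and kinases were higher and 7 lower (median -0.17), and with length and GC removed 2 and 7 (median -0.10). Toll-like receptors and their adaptors had 7 of 23 higher (30.4%) and 4 lower (17.4%), shares near those of all genes. Cd14, the co-receptor for bacterial lipopolysaccharide, rose from 465, 412 and 441 CPM to 779, 757 and 780 CPM.

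**Figure D2:**
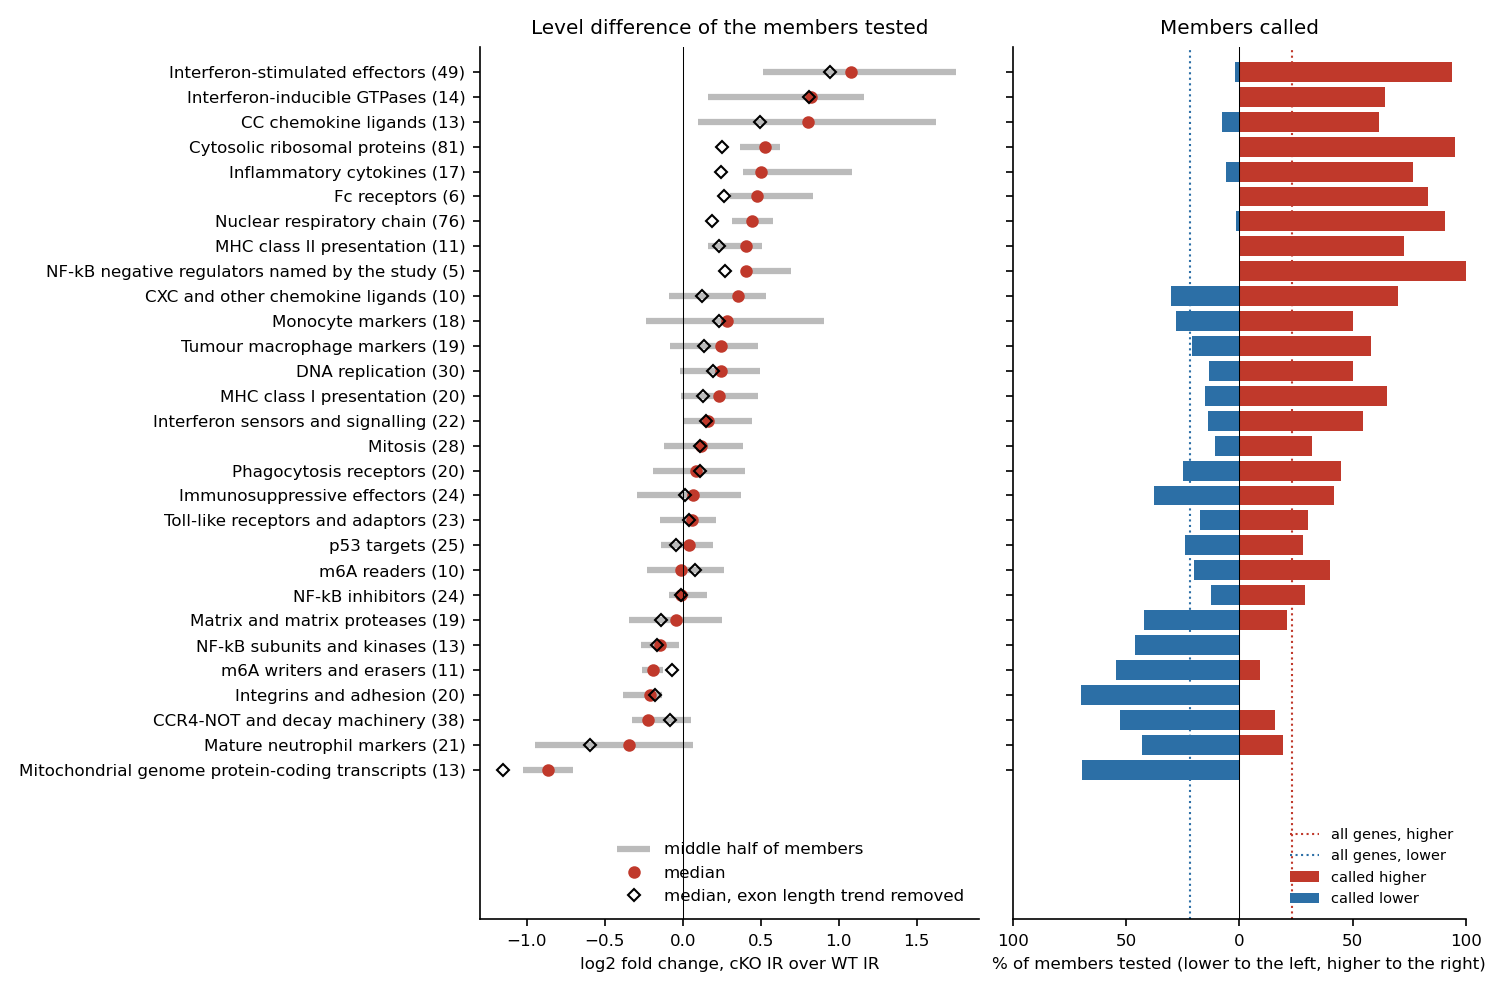
Level differences of 29 of the gene lists described in the text, with the number of members tested in brackets. Left, median log2 fold change of the members (red points), their middle 50% (grey bars) and the median after removal of the exon length trend (open diamonds). Right, percent of members called higher (red) and lower (blue), with dotted lines for the percent of all genes called. The effectors sit highest with 46 of 49 members called higher, and the mitochondrial genome transcripts lowest of the 29. Erythroid and other markers from outside the myeloid gate are not drawn.

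Receptors for antibody and the antigen-presenting machinery were mostly higher. Of 6 Fc receptors, 5 were higher and none lower (median 0.48), with Fcgr1, the high-affinity IgG receptor, rising from 17.7, 13.4 and 15.5 CPM to 36.4, 37.3 and 37.4 CPM and Fcgr4 from 8.06, 7.6 and 8.91 CPM to 17, 14.7 and 15.2 CPM. MHC class II genes had 8 of 11 higher and none lower (median 0.40), and MHC class I presentation genes 13 of 20 higher and 3 lower (median 0.23). With the length trend removed, 5 Fc receptors were higher and 1 lower (median 0.27), 6 class II genes higher and 2 lower (0.23) and 9 class I genes higher and 3 lower (0.13). H2-Ab1, a class II chain, rose from 976, 927 and 929 CPM to 1440, 1445 and 1474 CPM. Phagocytosis receptors were mixed, with 9 of 20 higher and 5 lower. Lrp1, an endocytic receptor that takes up dead cells, fell from 1359, 1278 and 1280 CPM to 700, 709 and 717 CPM. The fall of Lrp1 was 0.88 on the log2 scale and 0.47 after the length trend was removed.

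None of 20 integrin and adhesion genes was higher and 14 were lower, with a median of -0.21 that became -0.18 (10 lower) without the length trend. Itgam, which encodes CD11b itself, stood at 414, 414 and 402 CPM against 341, 340 and 328 CPM. Itgax (CD11c) fell by 0.17 (SE 0.04) and Itgb7, an integrin subunit for gut homing, fell by 0.65 (SE 0.08). Matrix and matrix protease genes had 4 of 19 higher (21.1%) and 8 lower (42.1%). Fibronectin (Fn1) fell from 877, 805 and 821 CPM to 504, 500 and 499 CPM, while it was 0.20 higher on the log2 scale in unirradiated tumours (interaction -0.94, SE 0.04, edgeR adjusted p = 1.6e-11). The gelatinases rose, Mmp2 from 49.2, 48 and 49.4 CPM to 91.2, 92.9 and 94.2 CPM and Mmp9 from 124, 116 and 120 CPM to 170, 172 and 181 CPM.

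Immunosuppressive effector genes showed no common direction, with 10 of 24 higher (41.7%) and 9 lower (37.5%) and a median of 0.07. Arg1, the arginine-degrading enzyme of suppressive macrophages, was at 4.61, 4.21 and 5.22 CPM against 4.38, 5.28 and 6.17 CPM, and the groups overlapped (edgeR adjusted p = 0.34). Il10, an anti-inflammatory cytokine, had 0.186, 0.0449 and 0.277 CPM against 0.565, 0.531 and 0.421 CPM, a log2 fold change of 1.57, and its call (edgeR adjusted p = 0.026) was lost when WT IR replicate 2, cKO IR replicate 1 or cKO IR replicate 2 was left out (0.0764, 0.0748 and 0.0672), with the length trend removed (0.0732) and with the length and GC trends removed (0.0912). Nt5e (CD73), which makes adenosine, fell from 2.63, 2.32 and 1.74 CPM to 0.496, 0.712 and 1.02 CPM. Havcr2 (TIM-3), an inhibitory receptor, fell from 7.43, 8.24 and 7.46 CPM to 2.73, 2.88 and 2.81 CPM. Lgals9, a galectin ligand of TIM-3, rose by 0.68 (SE 0.05).

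DNA replication genes had 15 of 30 higher and 4 lower (median 0.24), and mitosis genes 9 of 28 higher and 3 lower (median 0.12). Birc5 (survivin), an inhibitor of apoptosis that acts at the spindle, rose from 5.91, 5.51 and 5.53 CPM to 11.3, 10.2 and 11 CPM. Gins1, part of the replicative helicase, rose by 0.98 (SE 0.19) and Tyms, which makes thymidylate, by 0.78 (SE 0.09). Pole and Cenpf, long genes for a DNA polymerase and a kinetochore protein, fell by 0.46 (SE 0.12) and 0.42 (SE 0.10), and neither was called without the length trend. The genotype difference of the mitosis genes ran the other way in unirradiated tumours, where none were higher and 22 lower (median -0.30), and the interaction was positive for 21 of the 28 and negative for 1. Targets of p53, the transcription factor that answers DNA damage, had 7 of 25 higher (28%) and 6 lower (24%), shares near those of all genes (median 0.04).

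Genes for the protein-making and energy-making machinery moved as families. Of 81 cytosolic ribosomal protein genes, 77 were higher and none lower (median 0.53), and of 76 nuclear genes of the respiratory chain, 69 were higher and 1 lower (median 0.44). Rpl34 rose from 505, 442 and 478 CPM to 795, 821 and 839 CPM and Rpl35a from 150, 154 and 158 CPM to 262, 268 and 260 CPM. Atp5e, a small ATP synthase subunit, rose from 39.6, 34.2 and 36 CPM to 67.7, 65.6 and 65 CPM, and Ndufa4, of cytochrome oxidase, by 0.78 (SE 0.09). Sdha, a gene for succinate dehydrogenase, was the member lower, by 0.18 (SE 0.04) and by 0.22 with the exon length trend described below removed. The 13 protein-coding transcripts of the mitochondrial genome, which encode partner subunits of the same complexes, went the opposite way, with 9 lower and none higher (median -0.86). mt-Nd5 fell from 2555, 2918 and 2752 CPM to 1338, 1271 and 1253 CPM, mt-Nd6 from 142, 151 and 131 CPM to 66, 64.3 and 64.3 CPM, and the 12S ribosomal RNA mt-Rnr1 from 11782, 16811 and 14685 CPM to 7034, 6188 and 6062 CPM. In unirradiated tumours 1 ribosomal protein gene was higher and 1 lower (median -0.01), 1 respiratory chain gene was higher and none lower (median -0.03), and 5 mitochondrial genome transcripts were higher and none lower (median 0.22). The interaction called 75 of 81, 64 of 76 and 10 of 13 members in the direction seen in irradiated tumours.

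The difference followed transcript length. When 12450 protein-coding genes were ranked by summed exon length and divided into 10 equal bins, the median log2 fold change went from 0.39 in the shortest bin (204 to 1751 bases), where 54.9% of genes were higher and 3.61% lower, to -0.33 in the longest (9886 bases and more), where 4.26% were higher and 63.8% lower. Spearman's rho between log2 fold change and exon length was -0.491 across genes, which are not independent replicates, against -0.133 in unirradiated tumours. The excess of short over long genes, as the median log2 deviation of the shortest bin minus that of the longest, was -0.249, -0.405 and -0.312 in the WT-labelled libraries and 0.304, 0.33 and 0.35 in the cKO-labelled ones. All 3 libraries of each group thus stood on the same side. Relative to all 12 Inputs, the same measure averaged 0.392 ± 0.0208 for cKO IR, -0.0401 ± 0.0134 for cKO Ctrl, -0.121 ± 0.0125 for WT Ctrl and -0.248 ± 0.0736 for WT IR (SD over 3 libraries), so the cKO IR libraries lay farthest from the other groups. The shares of mitochondrial reads and of reads that matched no counted gene feature also differed between WT IR and cKO IR, and their part in the trend was not tested.

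Removing each library's smooth (loess) trend of level on exon length left 5628 of 15168 genes called (37.1%), 2781 higher (18.3%) and 2847 lower (18.8%). Ribosomal protein genes then had 60 members higher and 1 lower with a median of 0.25, and respiratory chain genes 43 higher and 1 lower with a median of 0.19. The mitochondrial genome transcripts, which are short, had 12 lower with a median of -1.15. Ahnak2, a giant scaffold-like protein, fell from 55.9, 50.5 and 51.7 CPM to 22.1, 22.9 and 23.5 CPM, by 1.21 on the log2 scale and by 0.87 after the trend was removed. Tns1, a focal adhesion protein, fell by 1.18 and, after removal, by 0.81. Named genes whose log2 fold change shrank by more than 1.5 times included Bst2 (0.86 to 0.52), C1qa (0.84 to 0.50), Fcgr4 (0.93 to 0.62), Tnfaip8l2 (0.70 to 0.37), Ndufa4 (0.78 to 0.48), Fn1 (-0.74 to -0.46), Stab1 (-0.51 to -0.28), Vwf (-0.70 to -0.32), Nav2 (-1.15 to -0.55), Nhsl2 (-1.14 to -0.74) and Pgap1 (-1.07 to -0.67), all still called. The median of the macrophage markers went from 0.25 to 0.13, of the neutrophil markers from -0.34 to -0.60, of the m6A writers and erasers from -0.19 to -0.07 and of the matrix genes from -0.04 to -0.14.

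**Figure D3:**
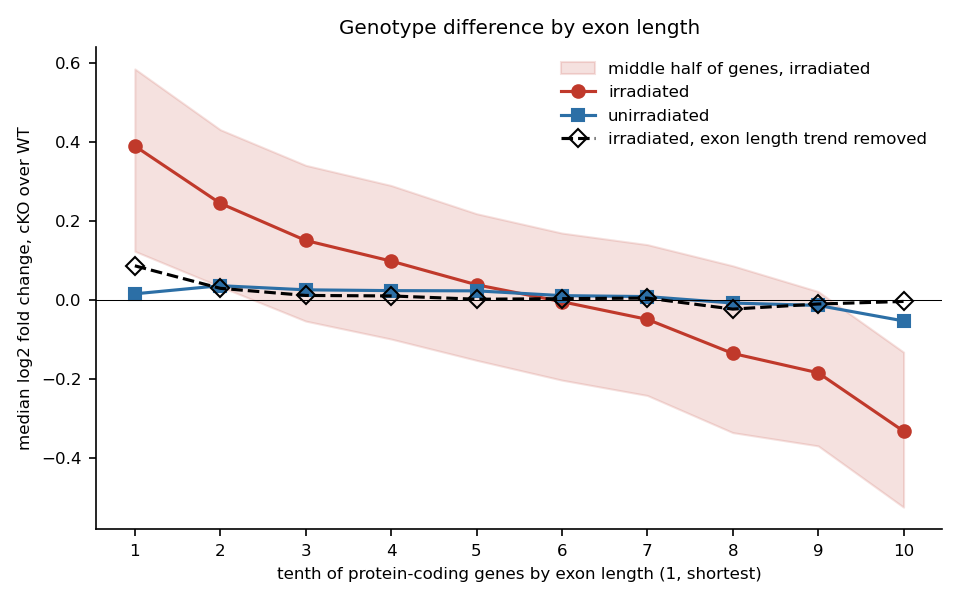
Median log2 fold change of cKO over WT in 10 equal bins of protein-coding genes by exon length, from shortest (1) to longest (10). Red circles are irradiated tumours with the middle 50% of genes shaded, blue squares unirradiated tumours, and open diamonds irradiated tumours after the exon length trend was removed. The irradiated medians run from 0.39 to -0.33, and the unirradiated medians are 0.02 in the shortest and -0.05 in the longest bin.

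Noncoding and unprocessed RNA classes differed in direction. Over all genes tested, 23.1% were higher and 21.9% lower. Of 466 tested TEC loci (transcripts whose coding status awaits experimental support), 5 were higher (1.07%) and 217 lower (46.6%), with a median of -1.17. Of 51 sense intronic RNAs none were higher and 19 lower (37.3%), with a median of -1.12. Malat1, an abundant nuclear noncoding RNA, fell from 1786, 1894 and 1752 CPM to 916, 904 and 855 CPM, by 1.02 (SE 0.04). Processed pseudogenes, copies of mature messenger RNA that share sequence with their source genes, had 188 of 915 higher (20.5%) and 24 lower (2.62%), with a median of 0.35. Their share called higher was thus near that of all genes, and their share called lower was smaller. Between 5.91 and 6.80% of the reads in WT IR and between 4.10 and 4.30% in cKO IR matched no counted gene feature. Such reads can lie in introns as well as between genes, and their part in these results was not tested.

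Among genes of the m6A pathway, the writers and erasers had 1 of 11 higher (9.09%) and 6 lower (54.5%), with a median of -0.19. Wtap, which anchors the methyltransferase complex, rose from 90.1, 99.1 and 93.2 CPM to 132, 130 and 130 CPM. Zc3h13 and Rbm15, other regulatory subunits of the complex, fell by 0.69 (SE 0.07) and 0.50 (SE 0.06). Of 10 readers 4 were higher (40.0%) and 2 lower (20.0%), beside 23.1% and 21.9% of all genes. Apart from Ythdf2 itself, Igf2bp2, a reader that stabilizes its targets, rose by 0.33 (SE 0.06), and Igf2bp1 was at 0.913, 1.62 and 1.31 CPM against 0.813, 0.363 and 0.526 CPM, a fall of 1.17 (SE 0.33). The decay machinery through which YTHDF2 acts had 6 of 38 members higher (15.8%) and 20 lower (52.6%), with a median of -0.22 that became -0.08 without the length trend. Cnot1, the CCR4-NOT scaffold bound by YTHDF2, stood at 239, 265 and 257 CPM against 183, 180 and 181 CPM, and its call was lost when the length trend was removed (edgeR adjusted p = 0.119). Smg6, an endonuclease of nonsense-mediated decay, fell by 0.52 (SE 0.06), and Lsm1, part of the ring that binds deadenylated messages, rose by 0.47 (SE 0.08).

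Regions of m6A antibody enrichment came from the peak lists of the 3 unirradiated WT libraries, which had no part in the compared counts. Between 17408 and 17608 peaks per library gave 12181 consensus regions found in all 3 libraries on the same strand, 96.2% of them in exons of that strand, and 4666 tested genes held at least 1. Of 8022 protein-coding genes without a region, 19.4% were higher and 27.3% lower in the cKO-labelled libraries. With 1 region (1767 genes) the shares were 38.9% and 15.9%, with 2 regions (1058 genes) 41.7% and 14.5%, and with 3 or more (1603 genes) 34.3% and 19.8%. The median log2 fold changes in this order were -0.06, 0.13, 0.16 and 0.08. Genes with a region had a higher share of rises and a lower share of falls than genes without one in each of 3 equal classes of exon length and each of 3 of mean level. In unirradiated tumours the shares higher and lower were 7.94% and 9.50% without a region and 16.1% and 8.86% with 3 or more. Of the genes named by the study, there were 3 regions in Metrnl, 4 in Smpdl3b, 1 in Tnfaip8l2 and none in Socs3, and Ythdf2 itself had 4. The core m6A motif GGACT was found in 11.3% of the 101-base windows around the summits of the exonic regions, in 8.72% of the same windows on the other strand and in 9.44% of 584904 windows tiled over exons of tested protein-coding genes, so the regions are described here as enriched regions and not as m6A sites.

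**Figure D4:**
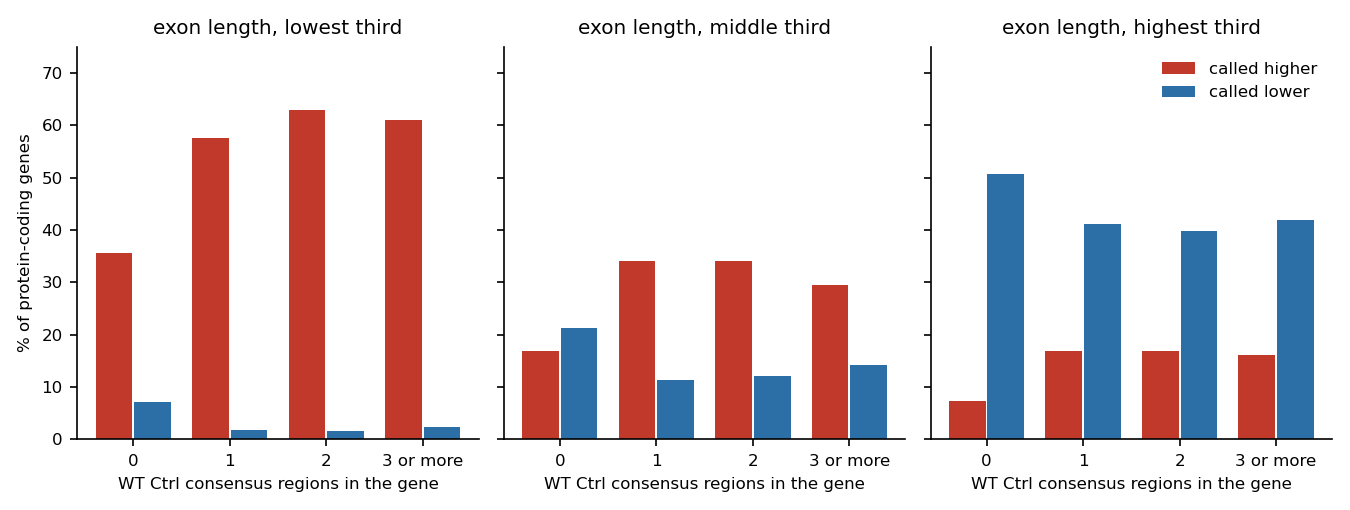
Percent of protein-coding genes called higher (red) and lower (blue) in cKO IR over WT IR, by the number of WT Ctrl consensus regions in the gene (0, 1, 2, or 3 or more), in 3 equal classes of exon length (lowest, middle and highest). In the shortest class, 35.7% of genes without a region and 57.7% of genes with 1 were higher, and in the longest class 7.25% and 16.8%.

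Itgam, which defines the CD11b+ sort, was present in every library and lower in the cKO-labelled ones, as given above. Among macrophage markers, Csf1r, the macrophage growth factor receptor, stood at 1659, 1550 and 1601 CPM in WT IR and 1474, 1525 and 1557 CPM in cKO IR (edgeR adjusted p = 0.13), and Adgre1 (F4/80) rose from 511, 575 and 561 CPM to 722, 721 and 733 CPM. Tumour macrophage markers had 11 of 19 higher and 4 lower (median 0.25), with C1qa, a complement subunit, rising from 49.6, 47.7 and 51.3 CPM to 85, 90.1 and 90.5 CPM. Mrc1 (CD206) and Stab1, scavenger receptors of macrophages, fell by 0.34 (SE 0.06) and 0.51 (SE 0.05). Monocyte markers had 9 of 18 higher and 5 lower (median 0.28). Ms4a4c rose by 1.55 (SE 0.30) and Ace fell by 1.31 (SE 0.20). Both were low in level, with means of 0.539 and 2.92 CPM in WT IR, and do not stand for the list. Mature neutrophil markers had 4 of 21 higher (19.0%) and 9 lower (42.9%), beside 23.1% and 21.9% of all genes (list median -0.34). Summed over the list and relative to unscaled library totals, these markers made 1333 to 1432 CPM in WT IR and 1514 to 1527 CPM in cKO IR. The sum and the list median thus differed in direction. Ltf (lactoferrin) fell from 45.5, 43.3 and 42.8 CPM to 16, 14.3 and 14.5 CPM and Ngp from 38, 35.5 and 36 CPM to 13.8, 12 and 11.9 CPM, with similar log2 fold changes of -1.57 and -1.60 in unirradiated tumours. Lcn2, another granule protein, was 0.46 (SE 0.05) higher in the cKO-labelled than in the WT-labelled libraries of irradiated tumours. In unirradiated tumours it was 1.07 lower in the cKO-labelled ones. The part of cell composition in the differences of the other gene groups was not tested.

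Markers of some cells outside the myeloid gate were detected, and the summed endothelial and platelet markers differed between the groups. Summed over the list and relative to unscaled library totals, T cell markers made 147 to 179 CPM in WT IR and 145 to 152 CPM in cKO IR, endothelial markers 219 to 232 CPM and 154 to 163 CPM, and platelet markers 276 to 304 CPM and 363 to 375 CPM. Vwf, which made up most of the endothelial sum, stood at 187, 180 and 185 CPM against 111, 112 and 118 CPM. Of 6 tested endothelial markers 3 were lower and none higher (median -0.68, and -0.33 with the length trend removed). Of 5 tested platelet markers 1 was higher and 1 lower (median -0.21), so the platelet sum and median differed in direction. Erythroid marker counts were concentrated in the WT IR group among the 4 Input groups. Hbb-bs, an adult beta-globin, had 2687 counts over the 3 WT IR libraries, none in cKO IR, 1 in WT Ctrl and 3 in cKO Ctrl, and Hba-a2 had 1051, 0, 1 and 0. Against a floor of 3 counts over the group, Hbb-bs was at least 911-fold and Hba-a2 at least 356-fold lower in cKO IR. The globin genes have near-identical copies, so the split of reads between copies is uncertain. Summed erythroid markers made up 0.00288% ± 0.000124 of WT IR gene counts (SD, n = 3), and their part in other results was not tested.

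The Cre insertion and the floxed allele lie in Lyz2 and Ythdf2, so the genes around both loci were counted. Within 5 Mb of Lyz2, 17 of 48 tested genes were called (35.4%) and within 10 Mb 39 of 88 (44.3%), against 45.0% of all genes. Around Ythdf2, 78 of 152 genes within 5 Mb (51.3%) and 138 of 269 within 10 Mb (51.3%) were called, against 43.4% on the rest of chromosome 4. In the same 5 Mb windows, 1 gene near Lyz2 and 3 near Ythdf2 differed by at least 2-fold.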

How the data were processed

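The authors deposited raw, unpooled HTSeq counts per GENCODE vM19 gene, made from reads that Trimmomatic had trimmed and HISAT had aligned with strand to mm10 (GRCm38). The deposited MACS2 peak lists hold a fold enrichment (ratio to a control), a score, and p and q as −log10 values, of which only the fold was used, and which control was used is not given in the sources used here. Of 54446 gene identifiers, 54409 matched GENCODE vM21.

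Counts of the 6 irradiated Inputs were tested with edgeR 4.0.16 in R 4.3.3 (TMM, quasi-likelihood F test, no covariates, Benjamini-Hochberg over 15174 genes, at least 10 counts in 3 libraries). The SE is the absolute log2 fold change over the square root of F. Unirradiated values and interactions came from 1 fit of 12 Inputs. DESeq2 1.42.0 was an alternative, and scripts were tested on simulated data. The irradiated IP libraries were not used, because their Lyz2 level was that of the other genotype. Named genes were the label genes, the study's genes, the 12 highest and lowest protein-coding genes, the 8 most abundant changed genes and up to 2 members of each list in each direction. Members and lists were chosen with earlier results of these data known, and length and GC removal after seeing the data. Some items that the rule names are not reported here. HTSeq summary lines were left out of library sizes.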

Additional observations from a re-analysis of the deposited data

Results flagged for a closer look

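For 76 of the 96 genes named in the report that could be tested, the difference between the cKO-labelled and WT-labelled libraries itself differed between irradiated and unirradiated tumours (edgeR interaction over 12 Input libraries, adjusted p under 0.05). Most of these genes were named for a large irradiated difference, which is 1 term of the interaction, so this number is fixed in part by the choice of genes. The values below are log2 fold changes of the interaction, the irradiated difference minus the unirradiated one, and no explanation was tested for any of them. Both differences use their own 6 libraries, and no control library is shared. The interaction also followed exon length over all protein-coding genes, with a median of 0.36 in the shortest bin and -0.27 in the longest. No interaction was fitted with the length trend removed, so the values below include that trend.

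Among interferon-stimulated genes and their regulators, the interaction was 1.63 for Ifi44, 1.52 for Isg15, 1.1 for Ifi27l2a, 1.08 for Rtp4, 0.98 for Ifit3, 0.94 for Cmpk2, 0.81 for Ifit1, 0.77 for Ifit2, 0.70 for Irf7, 0.49 for Bst2, 0.48 for Dhx58 and 0.28 for Oasl2. It was 1.08 for Tgtp2 and 0.58 for Gvin1, neither of which passed with the replicate numbers as a block (adjusted p = 0.0651 and 0.0689). Samhd1, Irf2 and Jak1 had values of -0.23, -0.35 and -0.21. Among chemokine, cytokine and acute-phase genes, it was 2.02 for Ccl7, 1.08 for Cxcl10, 1.03 for Ccl2, 1.01 for Il12a, 0.97 for Saa3, 0.68 for Hp, 0.50 for Serpinb2, 0.49 for Clec4e, 0.47 for Il6, 0.44 for Cxcl1 and 0.20 for Cxcl16. Fitted values for Ccl12 (8.01) and Hbb-bs (-14.16) come from groups with 0 counts and depend on the prior count.

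Of the receptors, antigen-presenting genes and cell markers, positive values were found for Lcn2 (1.53), Ms4a4c (0.98), Fcgr1 (0.51), Fcgr4 (0.47), H2-Ab1 (0.33), Cd14 (0.28), Tnfaip8l2 (0.28) and Lgals9 (0.21). Negative values were found for Ace (-1.01), Lrp1 (-0.69), Stab1 (-0.65), Mrc1 (-0.57), Havcr2 (-0.53), Vwf (-0.46), Itgax (-0.36), Itgam (-0.32) and Csf1r (-0.32). In the matrix group Mmp9 had 0.76, Mmp2 -0.35 and Fn1 -0.94. Of all genes named in the report, Lcn2, Fn1, Mmp9, Mrc1, Itgax, Stab1, Samhd1, Birc5 and mt-Nd5 were called in both irradiated and unirradiated tumours with opposite signs.

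Of the named genes of the ribosome, respiratory chain and cell cycle, positive values were 0.75 for Rpl34, 0.66 for Rpl35a, 0.88 for Atp5e, 0.80 for Ndufa4, 0.83 for Gins1, 0.83 for Tyms and 1.15 for Birc5. Sdha had -0.18. The mitochondrial genome gave -1.29 for mt-Rnr1, -1.21 for mt-Nd5 and -1.01 for mt-Nd6. The long transcripts, Malat1 and Wdfy1 gave -0.73 for Tns1, -0.72 for Ahnak2, -0.61 for Nav2, -0.55 for Malat1, -0.49 for Pgap1, -0.35 for Wdfy1 and -0.25 for Nhsl2, the last not passing with the replicate block (adjusted p = 0.0595). In the m6A and decay machinery, values were 0.28 for Wtap, -0.56 for Zc3h13, -0.49 for Rbm15, 0.36 for Lsm1, -0.39 for Smg6 and -0.35 for Cnot1. For the label genes, the interaction was 0.21 for Ythdf2 and 0.44 for Lyz2.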

How the results depend on the processing

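The number of genes called was 6834 with RLE size factors, 6893 with DESeq2, 7630 with all 12 Inputs in the fit, 7058 of 25884 with at least 1 count in 1 library, 6578 of 12190 with at least 50 counts in 3 libraries, 6823 without mitochondrial genome genes, 5628 with the exon length trend removed and 5985 with the length and GC trends removed, and it lay between 5654 and 7423 when 1 library was left out. Deviations of same-numbered libraries correlated weakly (r = 0.00884, 0.0173 and 0.0132), and those of differently numbered libraries had r between -0.0121 and -0.00182. With 3 libraries per group, these values cannot settle whether the numbers pair the samples. The fit with the replicate number as a block called 6640 genes. At least 2-fold counts fell to 135 higher and 154 lower at 50 counts, and were 140 higher and 496 lower with the length trend and 138 and 536 with the length and GC trends removed. When 1 library was left out, they were 186 to 245 higher and 353 to 441 lower.

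In the following, a pair of values gives the length trend and then the length and GC trends removed. The effector median was 0.941 and 0.9042 with 0 members lower in both, and 1.001 to 1.094 with 0 to 1 lower when 1 library was left out. The GTPase median was 0.4428 at 50 counts, and 0.682 to 0.8625 when 1 library was left out, and 1 GTPase was lower with length and GC removed. The 5 NF-kB brakes had 3 higher and a median of 0.2727 with the length trend removed, and medians of 0.3919 to 0.4767 without 1 library. The ribosomal median was 0.2511 and 0.2626 with 1 and 4 lower, and the respiratory chain had 43 and 42 higher and medians of 0.1896 and 0.1704. The mitochondrial genome median was -1.152 and -1.274, and 1 of its transcripts was higher with DESeq2, at 1 count in 1 library, with 12 Inputs and with the replicate block (0 to 1 without 1 library).

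Direction turned for the immunosuppressive median (-0.02824 at 50 counts, -0.008672 with length and GC removed, and -0.01974 to 0.1331 without 1 library), the p53 target median (-0.04259 and -0.02608), Samhd1 (0.05774 and 0.07402), Ccr7 (-0.0555 and -0.05097), Arg1 (-0.03171 and -0.06771) and Csf1r (0.02874 with length and GC removed). The medians of genes with 0, 1, 2 and 3 or more regions were -0.006479, 0.1559, 0.1525 and 0.1271 for peaks of at least 4-fold enrichment, -0.0679, 0.1194, 0.1468 and 0.06872 at 50 counts, -0.04121, 0.07677, 0.09658 and 0.07317 with the length trend removed, and -0.04117, 0.07101, 0.07857 and 0.06554 with length and GC removed. Apart from the length and GC removals, whose trend is part of their construction, the cause was not tested. The fit without mitochondrial genome genes could give no value for that list. The length and GC settings were chosen after seeing the data. None of the interferon ligands reached the count filter, and at this depth absent and low expression cannot be told apart.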

Other observations

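Further gene lists were described in the same comparison, with counts at an edgeR adjusted p under 0.05 beside 23.1% of all genes higher and 21.9% lower. Of 16 chemokine receptors 10 were higher and 2 lower (median log2 fold change 0.27), and of 12 complement genes 6 were higher and 2 lower (median 0.44). Genes of the integrated stress and unfolded protein responses had 11 of 21 higher and 2 lower (median 0.23), and 8 higher and 4 lower with a median of 0.08 after the exon length trend was removed. Heat shock proteins had 6 of 13 higher and 1 lower (median 0.20). Glycolysis genes had 8 of 21 higher and 6 lower (median 0.07), and genes of the hypoxia response 5 of 19 higher and 3 lower (median 0.06).

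Immediate early genes had 4 of 23 higher and 6 lower (median 0.03), and none higher with 9 lower after the length trend was removed (median -0.14). Of 317 zinc finger Zfp genes, 27 were higher and 71 lower (median -0.08). Replication-dependent histone genes, whose messages mostly lack a poly(A) tail, had 2 of 50 higher and none lower in irradiated tumours, whereas 1 was higher and 17 lower of 60 in unirradiated tumours, and the interaction was positive for 18 and negative for none.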
